A study of Homo sapiens with 4 samples.

Results

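A group of 10 widely expressed genes of the actin cytoskeleton were followed through repression of the long non-coding RNA gene SNHG26 in human embryonic stem cells. They are ACTB and ACTG1, TMSB4X and TMSB10, PFN1, CFL1, MYL6 and MYL12A, and TPM1 and TPM3. They were taken by symbol from the deposited gene table, which lists 16174 genes, and all 10 were found once each with a value in every library.

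H9, the line used, is a long-established one of human embryonic stem cells in the primed state, and it was kept in mTeSR1 medium. Every culture had received, by transposase, an all-in-one doxycycline-inducible vector for dCas9-BFP-KRAB, which joins a Cas9 that cannot cut, a blue fluorescent protein and a repressor domain, together with guide RNAs. One arm carried a pool of 4 guides to SNHG26 and the other carried control non-targeting guides. Both arms were selected with puromycin as pools and then given doxycycline for 2 or 3 days, so the controls carry the same vector, selection and drug. Y-27632, an inhibitor of myosin contraction, was in the medium at the seeding before transfection, per the labels' protocols. Each arm and day has 1 nanopore cDNA library, which gives 2 libraries an arm and 4 in all. The labels do not say whether the libraries came from separate cultures, so p-values measure only the spread between these libraries. In the main comparison of the arms, that spread holds the change from day 2 to day 3 within each arm. For the days it holds the change between the arms on each day. The same is true of the SDs over 2 libraries.

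Values are in TPM, a read number per length scaled to a common sum in each library. For 2853 of 13840 genes the deposited TPM came out as whole reads on the full genomic span, introns included. Of the 10 genes only TMSB10 was among them, and the length used for the others is not known. On a span of 10 kb, 1 read stood for 0.729 and 0.653 TPM with the SNHG26 guides on days 2 and 3. With the control guides it stood for 0.803 and 0.672 TPM. Values in this text are given in that order unless a sentence says otherwise. SNHG26 itself was listed at 0 and 0.933 TPM with its guides and at 2.98 and 4.03 TPM with the control guides, a difference that did not pass (limma adjusted p 0.935). Of the primed stem cell markers, 9 of 10 were listed and all 9 had a value in at least 1 library, with sums from 1657 to 1893 TPM. The mesenchyme list summed to 8.12 to 12.1 TPM over 4 of its 8 genes. Of the muscle list, MYH11 was at 0 in every library, and the list's sum came mostly from ACTA1 and ACTC1, whose values are given below. Of the mesendoderm list 2 of 6 genes were listed, with EOMES at 0 throughout and MIXL1 at 0 except for 1.98 TPM in the day 3 control library, and of the amnion list 1 of 5, at 0 to 1.29 TPM. The other mesendoderm and amnion markers and the whole neuroectoderm list were not found by symbol among the listed genes, so they have no value here. The 13 mitochondrially encoded mRNAs summed to 73556 and 69894 TPM with the SNHG26 guides and to 85652 and 89017 TPM with the control guides.

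Actin is a globular protein that assembles into filaments, which give a cell its shape, its cortex and, with myosin, its pull. Non-muscle cells make a beta form (ACTB) and a gamma form (ACTG1). The pool of free monomers is set by small binding proteins: thymosins hold monomers back, profilin feeds them to growing ends, and cofilin cuts old filaments. Tropomyosins coat filaments, and myosin light chains belong to the motor that slides them. In primed embryonic stem cells this machinery holds the compact, epithelial colony together, and loss of its control after dissociation is a known cause of cell death.

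The coding sequences of both beta thymosins are shown because these 2 genes were the highest of the group and, as given below, stood apart in opposite directions between the days. Each sequence runs 5′ to 3′ from start to stop codon, from GENCODE 29, with capitals where the pair differ.
TMSB4X: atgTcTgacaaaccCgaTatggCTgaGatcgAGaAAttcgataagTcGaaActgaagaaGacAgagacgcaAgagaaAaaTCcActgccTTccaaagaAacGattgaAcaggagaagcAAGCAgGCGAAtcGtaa
TMSB10: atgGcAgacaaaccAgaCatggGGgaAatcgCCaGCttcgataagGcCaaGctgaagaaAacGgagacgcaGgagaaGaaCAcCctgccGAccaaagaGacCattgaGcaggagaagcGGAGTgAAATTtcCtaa
Both are 135 bases long with 44 codons before the stop. They share 72.6% of their bases and differ at 37 positions, with no gap.

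Windows upstream of 3 genes are shown because the pathway is known to be controlled in part by serum response factor, which binds the CArG box. Each holds the 250 bases before the RefSeq start, on the strand of the gene, in build GRCh38.p14. For ACTG1 (chr17:81512800-81513049, minus strand) the capitals mark a CArG box. For TMSB10 (chr2:84905406-84905655, plus strand) they mark TATAA, the core of a TATA box. TMSB4X (chrX:12974860-12975109, plus strand) held neither.
ACTG1: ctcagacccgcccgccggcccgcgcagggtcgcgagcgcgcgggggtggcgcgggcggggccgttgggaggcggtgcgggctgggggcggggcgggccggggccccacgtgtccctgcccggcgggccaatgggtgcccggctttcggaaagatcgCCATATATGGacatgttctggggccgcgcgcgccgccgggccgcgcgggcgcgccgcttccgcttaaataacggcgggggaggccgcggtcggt
TMSB10: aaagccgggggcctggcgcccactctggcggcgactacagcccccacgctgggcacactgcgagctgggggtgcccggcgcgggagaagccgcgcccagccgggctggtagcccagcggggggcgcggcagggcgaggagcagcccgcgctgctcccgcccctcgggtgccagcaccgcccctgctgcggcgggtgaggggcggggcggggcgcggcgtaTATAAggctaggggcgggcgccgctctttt
TMSB4X: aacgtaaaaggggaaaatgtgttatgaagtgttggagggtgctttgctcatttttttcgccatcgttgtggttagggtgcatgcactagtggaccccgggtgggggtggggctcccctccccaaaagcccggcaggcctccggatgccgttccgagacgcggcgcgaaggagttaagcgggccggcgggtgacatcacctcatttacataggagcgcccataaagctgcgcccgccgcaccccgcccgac
The CArG box begins 94 bases before the ACTG1 start, and TATAA begins 30 bases before the TMSB10 start. The windows of ACTG1 and TMSB10 had 78.8% and 78% G and C, and that of TMSB4X had 60.8%. RefSeq windows reaching 50 bases past the start were matched for 9 of the 10 genes, all but ACTB, in 12 windows. Searched on both strands, a CArG box was present in 1 of these windows, that of ACTG1, and in 1.29% of 35116 windows of all genes. TATAA was present in windows of TMSB10 and MYL12A and in 20.4% of all windows. A match describes letters only, and no binding was measured here.

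The 10 genes summed to 49190 and 48244 TPM with the SNHG26 guides and to 47162 and 40798 TPM with the control guides. That was 5.14%, 5.06%, 4.92% and 4.27% of all listed TPM, so the day 3 control library held the lowest share. TMSB10 alone made up 54.4%, 49.8%, 52.9% and 49.7% of the sum. In bulk RNA, fewer cells of a type and less RNA per cell cannot be told apart.

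Levels differed widely between the genes, as the plot of TPM by library shows. By mean TPM over the 4 libraries the order was TMSB10 at 24001, TMSB4X at 8348, PFN1 at 3875, ACTG1 at 3295, ACTB at 3144, MYL6 at 2019, CFL1 at 1396, MYL12A at 190.1, TPM1 at 55.7 and TPM3 at 25.4 TPM. TMSB10 ranked 4 among all listed genes, TMSB4X 19, PFN1 41 and TPM3 1787. The ranges of PFN1, ACTG1 and ACTB overlapped across libraries. Within each library PFN1 stood above ACTG1, most narrowly on day 3 with the SNHG26 guides, at 3643 against 3600 TPM. ACTB stood above both in that library, at 3932 TPM, and below both in the others, so its place was not the same throughout. MYL6 and CFL1 did not overlap but came within a few TPM of each other, at 1594 for the lowest MYL6 library and 1583 for the highest CFL1 library. The other neighbours were separated in every library.

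**Figure D1:**
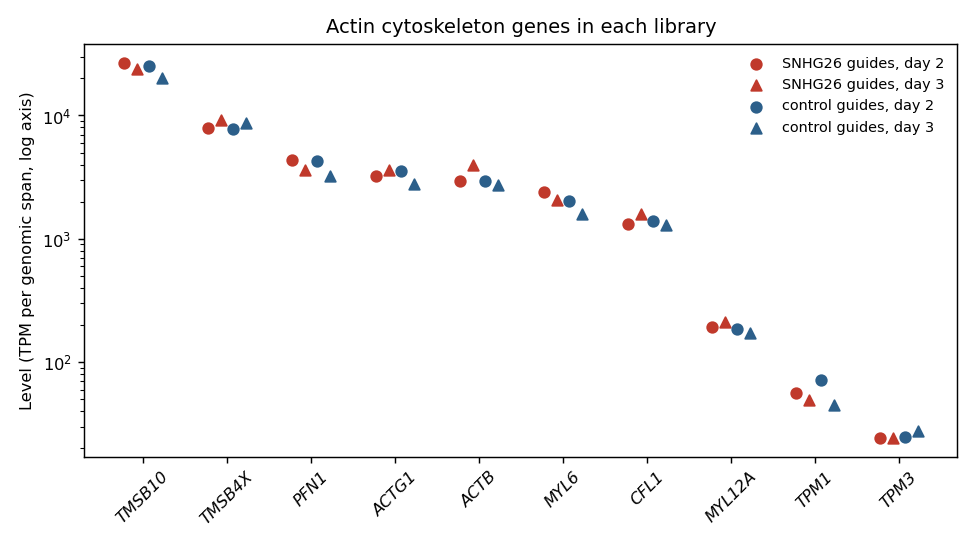
TPM (log axis) of the 10 genes in the 4 libraries. The axis label says per genomic span, and of these genes only TMSB10 came out as whole reads on its full span. Red marks SNHG26 guides, blue control guides, circles day 2 and triangles day 3. TMSB10 stood between 20260 and 26757 TPM and TPM3 between 24.4 and 27.7 TPM, and the libraries of a gene lay close together next to the gaps between most genes.

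The order depends on the length that TPM divides by. TMSB10 has 1 annotated transcript in GENCODE 29 and came out as whole reads, at 3729, 3736, 3158 and 3065. These are on its deposited span of 1016 bases, where GENCODE 29 gives 1051 bases. The annotation behind the deposited values thus differs from GENCODE 29 for this gene, and estimates from GENCODE 29 spans are approximate. The other genes of the group have from 3 to 34 transcripts of different span, so their reads are known only as an upper bound or an estimate. Taken on the full gene span of 37494 bases, ACTB had at most 16709 reads on average and ranked 1, with CFL1 at 2, ACTG1 at 3 and TMSB10 at 4. Taken on the median transcript span, the estimate for ACTB was 1153 reads and the order began with TMSB10, TMSB4X, ACTG1, PFN1 and ACTB. The ACTB transcripts run from 748 to 35193 bases, so its TPM can also move with the transcripts used.

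ACTB (chromosome 7, 5526409 to 5563902, minus strand) encodes beta actin, the main actin of most non-muscle cells. It stood at 2951 and 3932 TPM with the SNHG26 guides and at 2944 and 2749 TPM with the control guides. The day 2 libraries of the arms were nearly equal and the day 3 library with the SNHG26 guides stood above the rest, so the arms did not overlap by a narrow margin. The means were 3441 ± 693 and 2847 ± 138 TPM (SD, n = 2 libraries each). Against the control guides, the log2 differences of TPM + 1, 0.0032 (day 2) and 0.52 (day 3), averaged 0.26 (SE 0.17), at a limma adjusted p of 0.935.

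ACTG1 (chromosome 17, 81509413 to 81523847, minus strand) encodes gamma actin, which differs from beta actin at a few residues near the amino end. It stood at 3257 and 3600 TPM with the SNHG26 guides and at 3543 and 2779 TPM with the control guides. The lowest value was again the day 3 control library, but the arms overlapped. Between the arms, log2 differences of -0.12 (day 2) and 0.37 (day 3) averaged 0.13 (SE 0.15), at a limma adjusted p of 0.960. ACTB over ACTG1 gave TPM ratios of 0.906, 1.09, 0.831 and 0.989. Both arms had the higher ratio on day 3. Summed, the 2 actins reached 7532 TPM in the day 3 library with the SNHG26 guides and 5528 TPM in the day 3 control library.

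TMSB10 (chromosome 2, 84905656 to 84906671, plus strand) encodes thymosin beta 10, which binds actin monomers and is abundant in embryonic tissue. It stood at 26757 and 24017 TPM with the SNHG26 guides and at 24968 and 20260 TPM with the control guides. Exact Poisson 95% intervals from its reads were 25906 to 27630, 23253 to 24800, 24105 to 25854 and 19549 to 20991 TPM, and they cover counting error only, since the amplified reads carry no molecular identifier. The day 3 control interval lay below the other intervals. The arms overlapped, with means of 25387 ± 1938 and 22614 ± 3329 TPM (SD, n = 2 libraries each). Guide differences of 0.10 (day 2) and 0.25 (day 3) averaged 0.17 (SE 0.13), at a limma adjusted p of 0.935.

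TMSB4X (chromosome X, 12975110 to 12977227, plus strand) encodes thymosin beta 4, the chief monomer-holding protein of many cells. It stood at 7906 and 9124 TPM with the SNHG26 guides and at 7699 and 8664 TPM with the control guides. The libraries parted by day rather than by arm. In log2 units, differences between the arms of 0.04 (day 2) and 0.07 (day 3) averaged 0.06 (SE 0.11), at a limma adjusted p of 0.997. TMSB10 over TMSB4X gave TPM ratios of 3.38 and 2.63 with the SNHG26 guides and of 3.24 and 2.34 with the control guides. On day 3 the ratio was lower in both arms.

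PFN1 (chromosome 17, 4945652 to 4949061, minus strand) encodes profilin 1, which loads monomers with ATP and hands them to growing filament ends. It stood at 4338 and 3643 TPM with the SNHG26 guides and at 4305 and 3211 TPM with the control guides. The day 2 libraries were close together and both day 3 libraries stood lower. Relative to the control guides, log2 differences of 0.011 (day 2) and 0.18 (day 3) averaged 0.10 (SE 0.19), at a limma adjusted p of 0.996.

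CFL1 (chromosome 11, 65823022 to 65862026, minus strand) encodes cofilin 1, which severs and disassembles old filaments. It stood at 1316 and 1583 TPM with the SNHG26 guides and at 1390 and 1295 TPM with the control guides. Only the day 3 library with the SNHG26 guides stood apart, and the arms overlapped. Against the control guides the log2 difference of -0.08 (day 2) and 0.29 (day 3) averaged 0.11 (SE 0.14), at a limma adjusted p of 0.966.

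MYL6 (chromosome 12, 56158346 to 56163496, plus strand) encodes the essential light chain of non-muscle and smooth muscle myosin. It stood at 2392 and 2061 TPM with the SNHG26 guides and at 2030 and 1594 TPM with the control guides. Both libraries with the SNHG26 guides stood above both controls, with the closest pair at 2061 and 2030 TPM. The means were 2227 ± 234 and 1812 ± 309 TPM (SD, n = 2 libraries each). Between the arms, log2 differences of 0.24 (day 2) and 0.37 (day 3) averaged 0.30 (SE 0.17), at a limma adjusted p of 0.935, the largest mean change with the guides among the 10 genes in this fit. Leaving out 1 library moved it from 0.13 to 0.48, against 0.05 to 0.47 for ACTB and 0.02 to 0.32 for TMSB10. MYL6 shares 1302 bases of span on the same strand with MYL6B, a light chain gene listed at 402 to 485 TPM, and how reads there were assigned is not given in the sources used here.

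MYL12A (chromosome 18, 3247481 to 3256236, plus strand) encodes a regulatory light chain of non-muscle myosin, whose phosphorylation switches the motor on. It stood at 191.1 and 211 TPM with the SNHG26 guides and at 186 and 172 TPM with the control guides. The arms did not overlap, and the day 2 values differed by a few TPM. Guide differences of 0.04 (day 2) and 0.29 (day 3) averaged 0.17 (SE 0.17), at a limma adjusted p of 0.946. Its neighbour MYL12B, whose coding sequence matches it at 494 of 519 aligned positions (95.2%), stood at 52.2 to 68.3 TPM. MYL12A over MYL12B gave ratios of 2.80 and 3.88 with the SNHG26 guides and 2.89 and 3.30 with the control guides. Reads shared by near-identical copies can be split by the counting, so these ratios are uncertain.

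TPM1 (chromosome 15, 63042620 to 63071915, plus strand) encodes tropomyosin 1, which coats and steadies filaments; here the gene's symbol must not be read as the unit. It stood at 56.3 and 49.2 TPM with the SNHG26 guides and at 71.8 and 45.3 TPM with the control guides. The highest and the lowest library were both controls. In log2 units, differences between the arms of -0.34 (day 2) and 0.12 (day 3) averaged -0.11 (SE 0.32), at a limma adjusted p of 0.998. Its coefficient of variation over the 4 libraries, 21.0%, was the highest of the group.

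TPM3 (chromosome 1, 154155308 to 154194648, minus strand) encodes tropomyosin 3, whose short forms are found in most cells. It stood at 24.4 and 24.4 TPM with the SNHG26 guides and at 24.9 and 27.7 TPM with the control guides. Both libraries with the SNHG26 guides stood below the controls, by less than 1 TPM on day 2. Relative to the control guides, log2 differences of -0.03 (day 2) and -0.17 (day 3) averaged -0.10 (SE 0.25), at a limma adjusted p of 0.998. Its coefficient of variation, 6.21%, was the lowest of the group. On the full span its values correspond to at most 122 to 162 reads a library.

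Across the guide arms, 0 of the 10 genes passed the limma adjusted p of 0.05, beside 0% of 8274 genes tested. At an unadjusted p under 0.05 the count was also 0, beside 4.07% of all genes. By sign of the mean change, 8 were higher with the SNHG26 guides and TPM1 and TPM3 were lower, with a median log2 change of 0.12 against 0.04 for all genes tested. Of all genes tested, 4407 were higher and 3867 lower. The arms did not overlap with the SNHG26 guides higher for 3 genes (ACTB, MYL6 and MYL12A), beside 16.1% of all genes. They did not overlap with the guides lower for 1 gene (TPM3), beside 13.2%. ACTB, MYL6, MYL12A, TMSB10, TMSB4X and PFN1 were higher on both days, 6 of 10, where 24.8% of all genes were. TPM3 was lower on both days, 1 of 10, where 21.8% of all genes were.

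The mitochondrial mRNA sum given above stood lower in both libraries with the SNHG26 guides, and TPM shares a common sum. Its part in the members' values was not tested. Scaling each library by the median ratio over genes moved the median of all genes from 0.04 to -0.0015 and the members' median to 0.065, with no sign turned in this comparison. Leaving out 1 library moved the members' median from 0.04, without the day 3 control library, to 0.26, without the day 2 control library. Leaving out 1 library turned the sign of the mean guide change of ACTG1, TMSB4X, CFL1, PFN1 and TPM1, so their direction rests on single libraries. Without the day 3 control library, ACTG1 was at -0.05 and PFN1 at -0.11. Without the day 3 library with the SNHG26 guides, TMSB4X was at -0.05 and CFL1 at -0.03. Without the day 2 control library, TMSB4X was at -0.03 and TPM1 at 0.21, and without the day 2 library with the SNHG26 guides PFN1 was at -0.03.

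**Figure D2:**
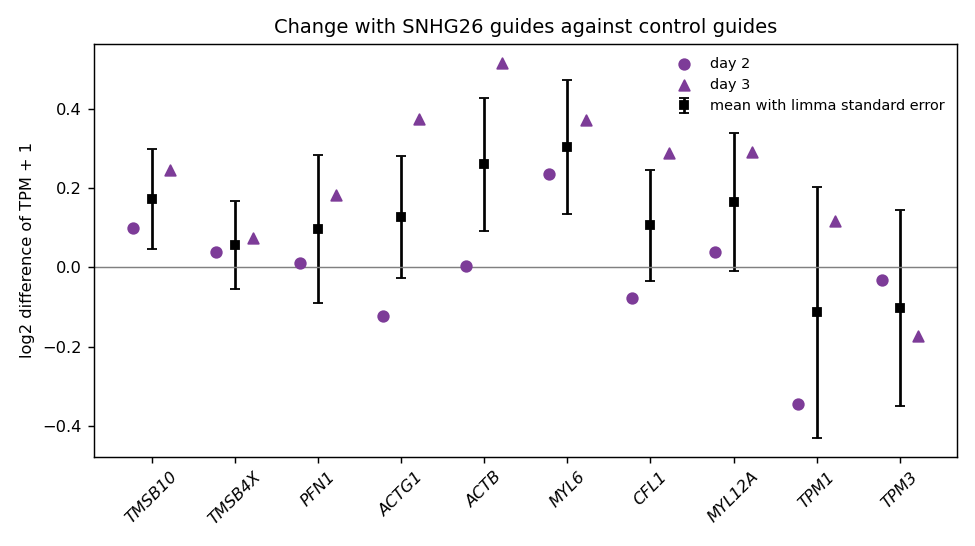
Log2 difference of TPM + 1 between SNHG26 guides and control guides for the 10 genes, with circles for day 2, triangles for day 3, and squares for the mean with its limma standard error. On day 3, 9 of 10 genes stood above 0, beside 4273 of all 8274 genes tested, with ACTB at 0.52 and TPM3 at -0.17. On day 2 the values lay between -0.34 for TPM1 and 0.24 for MYL6.

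The guide change was higher on day 3 than on day 2 for 9 of the 10 genes, beside 4541 of all 8274 genes tested. The median of the members was 0.0071 on day 2 and 0.27 on day 3, while the median of all genes was 0 and 0.03. Set against each other in limma, the days differed by 0.51 (SE 0.36) for ACTB, 0.50 (SE 0.25) for ACTG1 and 0.37 (SE 0.26) for CFL1. TPM1 had 0.46 (SE 0.60) and TPM3, the one gene with a lower change on day 3, -0.14 (SE 0.49). The spread behind these SEs holds the changes between the arms and between the days, since each arm and day has 1 library. None of the 10 passed, with limma adjusted p-values from 0.961 to 0.999, beside 0.0967% of all genes past the threshold. At an unadjusted p under 0.05 the count was 0, beside 3.52% of all genes. The median difference of the members was 0.21, against 0.10 for all genes. With median ratio scaling the median of all genes became -0.0045 and TMSB4X turned to -0.09, so the sign for TMSB4X flips with the scaling. All day 3 guide changes use the same control library, in which the 10 genes held their lowest share of the listed TPM.

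Between day 2 and day 3 of doxycycline, the libraries of TMSB4X, TMSB10, PFN1 and TPM1 each parted by day. TMSB4X had day 3 above day 2, as 17.1% of all genes tested did. TMSB10, PFN1 and TPM1 had day 3 below day 2, as 18.4% of all genes tested did. TMSB4X was higher on day 3 in both arms, by 0.21 with the SNHG26 guides and 0.17 with the control guides, with means of 7802 ± 147 TPM on day 2 and 8894 ± 325 TPM on day 3 (SD, n = 2 libraries each). The mean change was 0.19 (SE 0.07), with a limma adjusted p of 0.750 (unadjusted 0.0507). TMSB10 was lower on day 3 in both arms, by -0.16 and -0.30, with means of 25863 ± 1265 and 22139 ± 2656 TPM (SD, n = 2 libraries each). The mean change was -0.23 (SE 0.11), with a limma adjusted p of 0.760 (unadjusted 0.0991). For both thymosin genes the libraries of the 2 days did not overlap.

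PFN1 was lower on day 3 by -0.25 with the SNHG26 guides and -0.42 with the control guides. Its means were 4322 ± 23.5 TPM on day 2 and 3427 ± 305 TPM on day 3 (SD, n = 2 libraries each), a ratio of 0.793. The mean change was -0.34 (SE 0.10), with a limma adjusted p of 0.628 (unadjusted 0.0264). In this fit it was the only one of the 10 genes with an unadjusted p under 0.05, a level that 6.61% of all genes reached. With median ratio scaling, or with the arm as a block, 3 genes reached it (PFN1, TMSB4X and TMSB10), and without the trend 0 did.

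The actins and cofilin 1 went opposite ways in the arms between the days. ACTB moved by 0.41 with the SNHG26 guides and -0.10 with the control guides, ACTG1 by 0.14 and -0.35, CFL1 by 0.27 and -0.10, and MYL12A by 0.14 and -0.11. Their mean changes were 0.16 (SE 0.20), -0.10 (SE 0.16), 0.08 (SE 0.14) and 0.016 (SE 0.17), with limma adjusted p-values from 0.838 to 0.994. These are the same 4 libraries as the comparison of guide changes by day, so the pattern is not a second observation.

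MYL6 stood lower on day 3 by -0.21 and -0.35, with a mean of -0.28 (SE 0.18) and a limma adjusted p of 0.760. Its day values overlapped, at 2030 TPM for the lowest day 2 library and 2061 TPM for the highest day 3 library. TPM1 stood lower by -0.19 and -0.65, with a mean of -0.42 (SE 0.22) and a limma adjusted p of 0.760, and its days did not overlap. TPM3 moved by 0.0038 and 0.15, with a mean of 0.07 (SE 0.21) and a limma adjusted p of 0.948.

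Between the days 0 of the 10 genes passed the limma threshold, beside 0.0363% of all genes. By mean change 5 were higher and 5 lower on day 3, with a median of -0.04 against 0.0071 for all genes. The days did not overlap with day 3 higher for 1 gene (TMSB4X), beside 17.1% of all genes, and with day 3 lower for 3 (TMSB10, PFN1 and TPM1), beside 18.4%. TMSB4X and TPM3 were higher on day 3 in both arms, where 24.3% of all genes were, and TMSB10, PFN1, MYL6 and TPM1 were lower in both arms, where 24.8% were. The sign of the mean day change turned when 1 library was left out for ACTB, ACTG1, CFL1, MYL12A and TPM3, and it did not for the other 5. Without the day 3 library with the SNHG26 guides, ACTB was at -0.10, CFL1 at -0.06 and MYL12A at -0.13. Without the day 3 control library, ACTG1 was at 0.08, TPM3 at -0.01 and the members' median at 0.04. Without the day 2 control library, MYL12A was at -0.0035. With quantile normalization CFL1 was at -0.01 and MYL12A at -0.04.

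**Figure D3:**
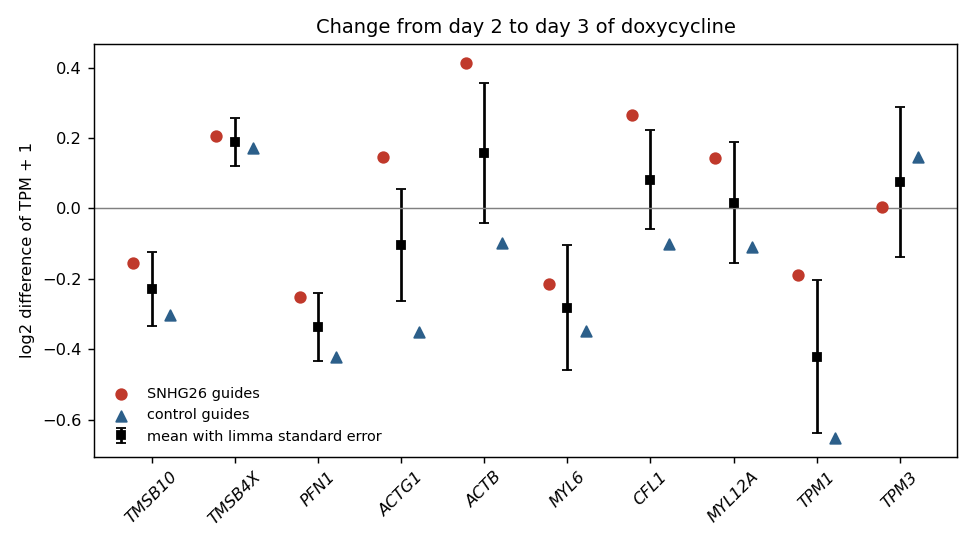
Log2 difference of TPM + 1 between day 3 and day 2 for the 10 genes, with red circles for SNHG26 guides, blue triangles for control guides, and squares for the mean with its limma standard error. TMSB4X stood above 0 in both arms, TMSB10, PFN1, MYL6 and TPM1 stood below 0 in both, and ACTB, ACTG1, CFL1 and MYL12A lay on opposite sides of 0.

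The wider actin machinery was read from 7 role lists of 107 genes, of which 106 were listed and 71 passed the filter of a mean of 1 TPM. Between the guide arms 0 of 71 passed the limma threshold and 2 (CFL2 and RHOC) had an unadjusted limma p under 0.05. Of all genes 0% and 4.07% did. Of the 71, 33 were higher and 38 lower, with a median of -0.02. Over all genes 4407 were higher and 3867 lower, with a median of 0.04. Between the days 0 of 71 passed and 5 had an unadjusted limma p under 0.05, beside 0.0363% and 6.61% of all genes. Of the 71, 30 were higher and 41 lower, with a median of -0.09. Over all genes 4193 were higher and 4081 lower, with a median of 0.0071. Between the arms the libraries did not overlap for 9 of 71 genes with the SNHG26 guides higher and for 8 with them lower, beside 16.1% and 13.2% of all genes. Day 3 stood above day 2 without overlap for 9 of 71 and below it for 24, beside 17.1% and 18.4%.

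The other actins are the muscle forms. ACTA1, skeletal alpha actin, stood at 143 and 110.0 TPM with the SNHG26 guides and at 147 and 46.6 TPM with the control guides. ACTC1, cardiac alpha actin, stood at 56.4 and 19.7 TPM with the SNHG26 guides and at 75.6 and 15.3 TPM with the control guides. On day 3 both were lower in both arms, with no overlap between the days. The mean day change was -1.85 (SE 0.27) for ACTC1, with a limma adjusted p of 0.248, and -1.01 (SE 0.46) for ACTA1, with a limma adjusted p of 0.760. All 3 other actins tested were lower on day 3, with a median of -1.02. Of the other muscle markers, MYL7 stood at 12.2 and 2.65 TPM with the SNHG26 guides and at 15.05 and 7.09 TPM with the control guides, and CNN1 at 11.4 and 9.60 TPM and at 10.5 and 4.60 TPM, both also lower on day 3 in each arm. MYH11 was at 0, and DES had at most 1.09 TPM in any library. ACTA2, below the filter, stood at 0.130 and 0.348 TPM with the SNHG26 guides and at 0.286 and 0.358 TPM with the control guides. It was higher on day 3 in both arms. TNNT2 stood at 1.17 and 0.350 TPM and at 0.430 and 1.08 TPM, lower on day 3 with the SNHG26 guides and higher with the control guides. The part of these markers in the day values of ACTA1 and ACTC1 was not tested. The muscle marker list, which holds both genes, summed to 226, 144, 248 and 75.9 TPM. ACTB and ACTG1 did not share this direction in both arms.

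Among cross-linkers and membrane linkers, 22 were tested, 9 higher and 13 lower on day 3. Chosen after its values were seen, TAGLN, the actin-bundling transgelin, stood at 166 and 61.8 TPM with the SNHG26 guides and at 173 and 51.1 TPM with the control guides. Both day 3 libraries were below both day 2 libraries. The mean day change was -1.58 (SE 0.18), with a limma adjusted p of 0.157. It passed at 0.000794 only with the arm as a block and a filter of 50 TPM, a setting chosen after seeing the data. ZYX, a focal adhesion protein also chosen after its values were seen, stood at 39.5 and 16.0 TPM and at 38.1 and 20.5 TPM, a day change of -1.06 (SE 0.23) with a limma adjusted p of 0.468. CNN2, a calponin, stood at 123 and 172 TPM with the SNHG26 guides and at 135 and 120.2 TPM with the control guides. The membrane linker MARCKSL1 stood at 670 and 445 TPM and at 620 and 617 TPM.

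Of the other monomer-binding, severing and capping genes, 16 were tested, 8 higher and 8 lower both between the arms and between the days. TMSB15A, another beta thymosin, stood at 308 and 393 TPM with the SNHG26 guides and at 294 and 428 TPM with the control guides. Like TMSB4X and unlike TMSB10, it was higher on day 3 in both arms, by a mean of 0.45 (SE 0.13) with a limma adjusted p of 0.640. PFN2, the second profilin, stood at 159 and 208 TPM and at 167 and 179 TPM, higher on day 3 in both arms where PFN1 was lower, by a mean of 0.25 (SE 0.16) with a limma adjusted p of 0.760. Chosen after its values were seen, CFL2, the second cofilin, stood at 28.4 and 15.6 TPM with the SNHG26 guides and at 7.25 and 5.03 TPM with the control guides. Its guide change was 1.65 (SE 0.43), with a limma adjusted p of 0.888, against 0.11 for CFL1.

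Of the myosin and tropomyosin list, 14 were tested, 7 higher and 7 lower with the SNHG26 guides. MYL6B stood at 466 and 485 TPM with the SNHG26 guides and at 402 and 447 TPM with the control guides, above the controls in both libraries as MYL6 was, by a mean of 0.16 (SE 0.14) with a limma adjusted p of 0.935. TPM2, another tropomyosin gene, stood at 98.6 and 97.3 TPM and at 89.0 and 74.8 TPM, also above the controls, by 0.26 (SE 0.21) with a limma adjusted p of 0.935. Chosen after its values were seen, MYL9, the smooth muscle regulatory light chain, stood at 118 and 57.2 TPM and at 88.5 and 64.1 TPM, a day change of -0.75 (SE 0.23) with a limma adjusted p of 0.661. RHOC, also chosen after its values were seen, stood at 43.1 and 45.1 TPM and at 27.2 and 22.5 TPM. Its guide change was 0.81 (SE 0.25), with a limma adjusted p of 0.935.

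Of the Arp2/3 complex, which starts branched filaments, 9 genes were tested. By mean change 7 were lower with the SNHG26 guides, beside 3867 of all 8274 genes, with a median of -0.18 against 0.04. The arms did not overlap for 2 with the guides lower and for 1 with them higher, beside 13.2% and 16.1% of all genes. Lower on both days were 4, where 21.8% of all genes were. The lowest limma adjusted p of the 9 was 0.935. ARPC1A stood at 44.1 and 69.1 TPM and at 45.5 and 46.1 TPM, and ARPC3 at 53.8 and 38.0 TPM and at 53.8 and 52.7 TPM. Their guide changes, 0.26 (SE 0.31) and -0.23 (SE 0.27), went opposite ways, at limma adjusted p-values of 0.956 and 0.958. Of the other nucleation and elongation genes, 6 of 20 passed the filter. BRK1, the smallest subunit of the WAVE complex, stood at 121 and 112 TPM with the SNHG26 guides and at 113 and 97.4 TPM with the control guides, and the formin INF2 at 2.41 to 6.35 TPM. Of the serum response factor list, SRF itself was the 1 gene tested, at 9.26, 7.02, 12.6 and 9.18 TPM, and ELK1 stayed below the filter.

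**Figure D4:**
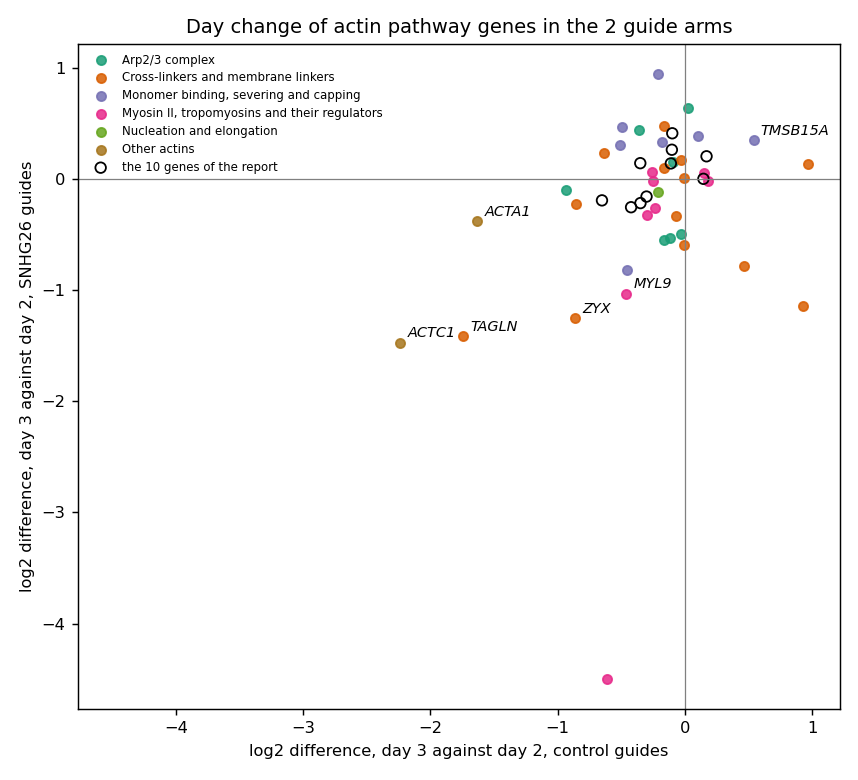
Log2 difference of TPM + 1 between day 3 and day 2 with control guides (horizontal) and SNHG26 guides (vertical), for 38 genes of the role lists with a mean of at least 10 TPM in colour and the 10 genes of the report as open circles. The open circles lie near 0, with the largest distance for TPM1 at -0.65 with control guides, while ACTC1 at -2.24 and -1.47 and TAGLN at -1.74 and -1.42 lie low in both arms. The unlabelled point at -4.50 is a gene listed at 0 TPM in 1 library.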

How the data were processed

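Poly(A) RNA of 4 H9 libraries was read as oligo-dT-primed, strand-switched cDNA after 14 PCR cycles, per the labels' protocols. The authors deposited 1 table of gene TPM. Reads were aligned with minimap2 2.24-r1122 and the build is GRCh38, per the submitters' processing notes; the counting tool and annotation are not given in the sources used here. Values of 2853 of 13840 genes (20.6%) were whole reads per genomic span, within 0.0001 read, so a count test was not used. Listed reads were at most 947338 to 1220260 a library.

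The 8274 genes averaging 1 TPM or more were tested on log2(TPM + 1), which understates changes of low genes. The test was limma 3.58.1 in R 4.3.3 (trend, two-sided, Benjamini-Hochberg over all genes, threshold 0.05). A run on simulated reads had counting error only, no day change, and larger changes than the members showed. It therefore bears on the code and not on the results here. Arms, days and their crossed contrast were compared. Some list genes are not reported here by name. A library left out leaves 1 in an arm or day, assumed to vary like the other group. The labels pair libraries by day of doxycycline; same-day deviations correlated at 0.0464 over genes. The members and lists were chosen with earlier results of these data known. The text names all members, list genes past the threshold, the 2 highest per list, and the 1 per list with at least 50 TPM and the largest change alike on both days. Alternatives were pseudocounts 0.1 and 5, no filter, filters of 5 and 50 TPM, quantile and median ratio scaling, no trend, the replicate block, the block with 50 TPM (added after seeing the data) and each library left out.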

Additional observations from a re-analysis of the deposited data

How the results depend on the processing

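None of the 10 genes passed the threshold under any alternative run, in any of the 3 comparisons. For the guide change, 98 alternative values had limma adjusted p-values from 0.598 to 0.9998, and 0 reversed. Leaving out 1 library (adjusted p 0.678 to 1) reversed 7 of 40 values, with ranges of -0.0491 to 0.30 for ACTG1, -0.0469 to 0.16 for TMSB4X, -0.0271 to 0.24 for CFL1, -0.11 to 0.31 for PFN1 and -0.44 to 0.21 for TPM1. For the day change, 98 values had limma adjusted p-values from 0.261 to 0.997. Quantile normalization reversed CFL1 to -0.0143 and MYL12A to -0.0384, and leaving out 1 library (adjusted p 0.370 to 1) reversed 6 of 40, with ranges of -0.10 to 0.42 for ACTB, -0.29 to 0.0840 for ACTG1, -0.0630 to 0.23 for CFL1, -0.13 to 0.16 for MYL12A and -0.0120 to 0.16 for TPM3. For the difference between days, 79 values had limma adjusted p-values from 0.888 to 1.000, and TMSB4X reversed to -0.0853 with median ratio scaling. The members' median guide change ran from 0.0383 to 0.26 without 1 library. Their median day change ran from -0.21 to 0.04 without 1 library, and reversed to 0.036 without the day 3 control library. TPM3 could not be tested with at least 50 TPM, and its level with its pseudogenes was 38.8 TPM.

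The replicate block (the day for the guide comparison, the arm for the day comparison) changed no call of a member. With it the unadjusted limma p of the guide change was 0.0481 for MYL6 and 0.0493 for TMSB10, both at an adjusted p of 0.908. For the day change it was 0.0226 for TMSB10, 0.0260 for PFN1 and 0.0444 for TMSB4X, at adjusted p-values from 0.733 to 0.813.

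Over all genes, the 0 calls between the arms became 14 with the replicate block and at least 50 TPM. Of the 3 day calls, 0 were left under either pseudocount (0.1 or 5), without a filter, above 50 TPM, after quantile normalization, in eBayes with no trend, under the replicate block and with each library left out (0 to 0). The block with at least 50 TPM gave 35, of which 1 was a pathway gene (TAGLN). The 8 genes whose guide change differed between days became 14 with a pseudocount of 0.1, 13 with at least 5 TPM, and 0 with a pseudocount of 5, no filter, at least 50 TPM or eBayes without a trend. The causes were not tested. By the full-span bound the fewest reads were behind TPM3, TPM1 and MYL12A, with at most 162, 262 and 283 in any library, and by the estimate MYL12A had fewer than TPM1.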

Other observations

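Rows named as pseudogenes of the 10 genes numbered 11, for 5 of them. The table classes 7 as processed pseudogenes, intronless copies that can take reads of their parent gene, with spans of 135 to 2658 bases. The other 4, among them the one row for CFL1, are classed as lncRNA, with spans of 12687 to 40054 bases. The 11 rows came to 0.129% of the summed mean TPM of the group. For TMSB4X the 3 rows came to 0.395% of the gene's level, and for ACTB, ACTG1 and CFL1 to less. TPM3 differed, with 2 rows at a summed mean of 13.5 TPM against 25.4 TPM for the gene, or 53.1%. TPM3P5 stood at 9.76 and 0 TPM with the SNHG26 guides and at 21.5 and 18.0 TPM with the control guides, on 1, 0, 2 and 2 reads. Each of its reads was worth much TPM on a short span, so its level rests on few reads.

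The genes with the profile most like ACTB over the 4 libraries were APRT, PEBP1 and SNHG29, among 344 other genes averaging 300 TPM or more, by Euclidean distance of centred log2(TPM + 1). APRT stood at 302 and 393 TPM with the SNHG26 guides and at 303 and 270.4 TPM with the control guides, at a distance of 0.0517. PEBP1 lay at 0.0738 and SNHG29 at 0.0755. With 4 libraries this is a description only.

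Genes on the opposite strand overlap TMSB10 (TRABD2A), CFL1 (MUS81 and SNX32), PFN1 (ENO3), MYL6 (SMARCC2) and MYL12A (MYL12-AS1). ENO3 had the highest value among them, at 11.5 and 11.3 TPM with the SNHG26 guides and at 11.0 and 2.23 TPM with the control guides, against 3211 TPM or more for PFN1. Whether counting used strand is not given in the sources used here, so reads in these overlaps are uncertain.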
